A study of Mus musculus with 7 samples.

Results

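The 36 genes described here encode the enzymes, transporters and regulatory kinases of glycolysis, the pentose phosphate pathway and glycogen metabolism. They are the rows of the deposited table, out of 49315 gene rows, whose Ensembl identifiers carry the 36 listed symbols in GENCODE mouse M21, and all 36 were found. By role, 18 are glycolytic enzymes, 4 are transporters of glucose or lactate, 4 are kinases that set glycolytic flux, 7 are pentose phosphate enzymes and 3 are glycogen enzymes. RNA came from bone marrow of mice fed chow and subjected to hindlimb ischemia, a surgical block of blood flow to the leg. The 3 flox libraries came from mice whose miR-181a2b2 cluster, the genes of the microRNAs miR-181a-2 and miR-181b-2, carries floxed alleles (miR-181a2b2flox/flox), and their titles call them WT. The 4 KO libraries came from mice without the cluster (miR-181a2b2-/-). Diet and surgery are shared by both groups, so neither can be compared within these libraries. The age and sex of the mice, the time after surgery, what drove the deletion, and whether each library is 1 animal were not stated in any source used here. The p-values below therefore set group differences only against the spread of these libraries, which may be technical.

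Glycolysis splits glucose into pyruvate, which most blood cells of the granulocyte line reduce to lactate and export. The pentose phosphate pathway branches off at glucose 6-phosphate and makes NADPH, which phagocytes spend on the oxidative burst, and ribose for nucleotides. Glycogen is a glucose store that neutrophils build during maturation, and red cells live on glycolysis alone once they have lost their mitochondria.

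The flox libraries held 46151300 to 51688514 counts and the KO libraries 43110251 to 48320848. Levels are given as CPM, counts normalised to the TMM-scaled library size. Lists of 3 or 4 CPM values are in the order of the replicate numbers. The markers of marrow cells were present. Neutrophil granule and effector markers (19 genes) summed to between 38144 and 69493 CPM and erythroid markers (10 genes) to between 34358 and 72535 CPM over the 7 libraries. The extraction protocol speaks of white adipose tissue, and 6 adipocyte markers summed to 27.8 to 80.1 CPM, with none at 0 in all libraries. Most of that sum was Fabp4, at 22.3 to 54.1 CPM. Lep was at 0 in every flox library and at most 0.0455 CPM in KO. A principal component over all tested genes set flox 1 apart, and flox 2 had the highest level of most genes described here, so values without flox 2 or flox 1 are given where leaving it out moved a gene described in every library by over 1.5 times.

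None of the 36 genes passed the edgeR quasi-likelihood test of KO against flox at an adjusted p of 0.05 over all genes (0 of 36, against 0.145% of all 17920 genes tested in either direction and 0.0112% lower in KO; lowest adjusted p = 0.195, for Pgd). All 36 passed the filter on low counts. The estimates were lower in KO for 29 and higher for 7, where 51.9% of all tested genes were lower. Their median log2 fold change was -0.23, against -0.00797 over all tested genes and -0.016 over the 9134 tested genes with a mean of 10 CPM or more. At an unadjusted edgeR p of 0.05, 18 of the 36 were lower in KO (all tested genes 8.17%) and 0 were higher (all tested genes 5.89%). DESeq2 called 1 of the 36, Pgd, lower in KO (adjusted p = 0.0402), where it called 0.799% of genes lower and 1.41% higher, and limma-voom called 0.

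In 16 of the 36 genes every KO library lay below every flox library (all tested genes 7.41%), and in 0 did every KO library lie above (all tested genes 6.22%). The 16 hold 8 glycolytic enzymes, 4 pentose phosphate enzymes, all 3 glycogen enzymes and 1 transporter. By role, the median log2 fold change was -0.24 for glycolytic enzymes (16 of 18 lower), -0.24 for pentose phosphate enzymes (6 of 7 lower), -0.31 for glycogen enzymes (3 of 3 lower), -0.065 for transporters (2 of 4 lower) and -0.071 for regulatory kinases (2 of 4 lower). The differences between roles were not tested. Flox 2 was the highest of the 7 libraries for 27 of the 36 genes. Without flox 2 the median over the 36 genes was -0.13, with 29 lower, and 6 rather than 18 had an unadjusted edgeR p under 0.05 and a lower estimate (all tested genes in that fit 5.88%). Without KO 4 that count was 11 (all tested genes in that fit 5.78%). The count of genes without overlap was 16 without flox 2 (all tested genes 11.6%) and 16 without flox 1 (all tested genes 10.9%). Leaving out a library cannot lower that count, so it cannot show whether the result depends on flox 2 or flox 1.

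**Figure D1:**
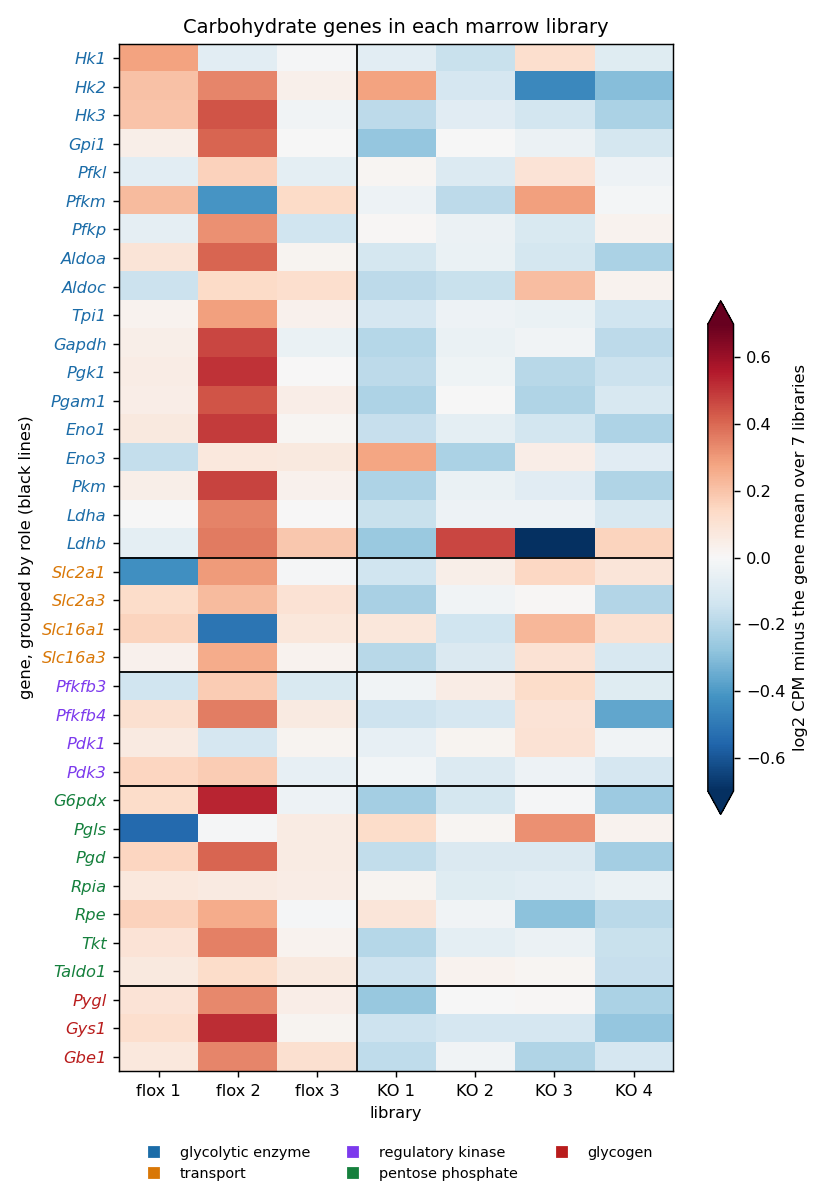
Each row is 1 of the 36 genes, grouped by role, and each column 1 library; colour gives log2 CPM minus the gene's mean over the 7 libraries. Flox 2 is the highest library for 27 genes, and Pfkm, Slc16a1 and Pdk1 are the 3 genes that are lowest there.

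**Figure D2:**
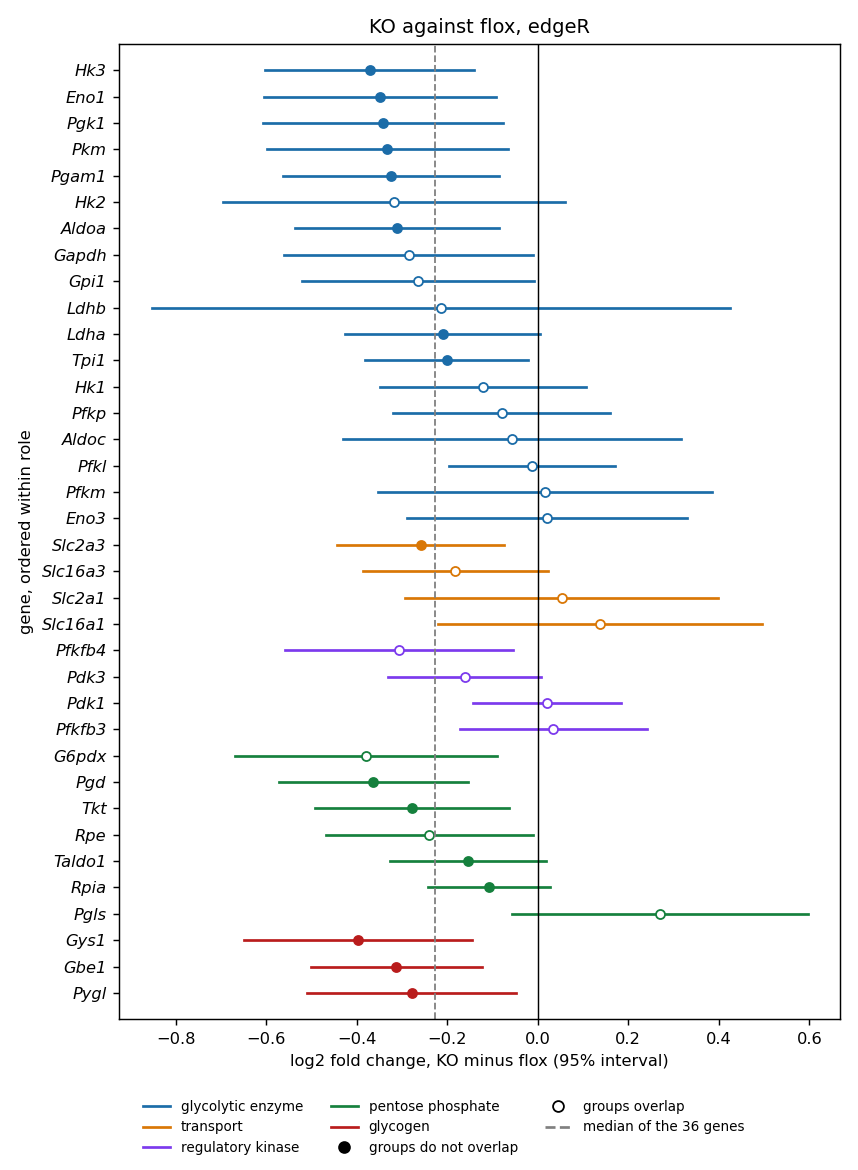
Points are edgeR log2 fold changes, KO minus flox, and lines their 95% intervals, by role; filled points mark the genes whose flox and KO libraries do not overlap. Of 36 points 29 lie below 0, and the dashed line is the median at -0.23.

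Because the deleted cluster encodes miR-181 microRNAs, the 3′ UTRs of the 36 genes were searched for their seed matches. The mature sequences, from RefSeq (GRCm38.p6), are shown with the seed, bases 2 to 8, in capitals. Both share that seed with miR-181c and miR-181d, which other loci encode, and loci not deleted here encode miR-181a and miR-181b as well.
miR-181a-5p: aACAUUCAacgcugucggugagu
miR-181b-5p: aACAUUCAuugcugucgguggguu
A complementary site TGAATGT was present in the longest protein-coding 3′ UTR of 4 of the 36 genes (Slc2a3, Pkm, Pfkp and Rpia), or 11.1%, against 17.8% of 14275 tested genes with such a UTR. The 3 sites in the genes described in full are printed from GENCODE M21 transcripts (GRCm38), in the direction of the transcript, with the match in capitals; the first also has the A opposite base 1 of the microRNA (an 8mer).
Slc2a3 8mer (chr6:122727813-122727842, minus strand): aataaaacttcTGAATGTAtgtgtcatgtc
Slc2a3 7mer (chr6:122728613-122728642, minus strand): gagacagtgacTGAATGTgcagtgtggtcc
Pkm 7mer (chr9:59679332-59679361, plus strand): tagtgcccaccTGAATGTcaataaacagca
All 4 genes with a site were estimated lower in KO, at -0.26 for Slc2a3, -0.33 for Pkm, -0.11 for Rpia and -0.080 for Pfkp. Their median was -0.18, against -0.23 for the 32 genes without a site, of which 25 were lower. Over the 14275 tested genes the median was -0.016 with a site and -0.018 without. A match is not evidence that the microRNA binds there.

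Levels of different genes were compared per kilobase of exon (CPM per kilobase, the RPKM scale), using the exonic length of all annotated transcripts together. On that scale the 36 genes ran from 0.96 for Aldoc to 277 for Taldo1, the transaldolase of the pentose phosphate pathway, as means over the 7 libraries. Next came the pyruvate kinase gene Pkm at 244, Gapdh at 207 and the aldolase gene Aldoa at 165. The pentose phosphate genes Tkt at 127 and G6pdx at 119 stood among glycolytic enzymes such as Gpi1 at 128, Ldha at 126 and Pgk1 at 122. The 3 phosphofructokinase genes were far lower, at 14.3 for Pfkm, 8.56 for Pfkl and 4.67 for Pfkp. Exons used by few transcripts lengthen a gene here and lower its value per kilobase.

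Among the enzymes that open glycolysis, Hk3 differed most. Hk3 (ENSMUSG00000025877, chromosome 13, 55005985 to 55021385, GRCm38) encodes the hexokinase typical of myeloid cells. It stood at 413, 487 and 354 CPM in flox and 316, 340.0, 329 and 308 CPM in KO. The lowest flox library, at 354 CPM, was above the highest KO library, at 340.0 CPM (-0.37 ± 0.10 SE as log2 fold change, adjusted p = 0.22 by edgeR; exact two-sided permutation p = 0.0286, the smallest that 3 libraries against 4 allow). Hk1, the hexokinase of red cells and most tissues, ran from 301 to 385 CPM over the flox libraries and 285 to 344 CPM over the KO libraries (log2 fold change -0.12, 95% interval -0.35 to 0.11). Hk2, the insulin- and hypoxia-responsive hexokinase, ran from 89.5 to 111 CPM over the flox libraries and 64.1 to 106 CPM over the KO libraries (log2 fold change -0.32, 95% interval -0.70 to 0.061), and KO 1 overlapped the flox range. Gpi1, which converts glucose 6-phosphate to fructose 6-phosphate, stood at 838, 1079.6 and 813 CPM in flox and 675, 814, 793 and 748 CPM in KO (-0.26 ± 0.11 SE as log2 fold change, adjusted p = 0.343 by edgeR). Its KO 2 library lay just above the lowest flox library, so the groups overlapped. Without flox 2 the log2 fold change was -0.23 for Hk3 and -0.11 for Gpi1.

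The phosphofructokinases, which catalyse the committed step, did not pass the test. Their log2 fold changes were -0.013 for Pfkl (95% interval -0.20 to 0.17), 0.016 for Pfkm (95% interval -0.35 to 0.39) and -0.080 for Pfkp (95% interval -0.32 to 0.16). Those intervals include the median of the 36 genes for Pfkm and Pfkp, so a difference of that size was not excluded for either. Aldoa, the main aldolase outside liver and brain (ENSMUSG00000030695, chromosome 7, 126795234 to 126800751), stood at 505, 631 and 481 CPM in flox and 436, 460.0, 436 and 408 CPM in KO. All 4 KO libraries lay below all 3 flox libraries (-0.31 ± 0.10 SE as log2 fold change, adjusted p = 0.244 by edgeR; exact permutation p = 0.0286). Aldoc, the aldolase of brain, was close to the bottom of the table at 2.81 to 3.42 CPM over the flox libraries and 2.74 to 3.61 CPM over the KO libraries (log2 fold change -0.057). Tpi1, which interconverts the triose phosphates made by aldolase, stood at 188, 226 and 189 CPM in flox and 171, 180.8, 179 and 168 CPM in KO, with no overlap (-0.20 ± 0.081 SE as log2 fold change, adjusted p = 0.314 by edgeR). Without flox 2 the log2 fold change was -0.17 for Aldoa and -0.093 for Tpi1.

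The 5 genes Gapdh, Pgk1, Pgam1, Eno1 and Pkm, whose enzymes lead from triose phosphate to pyruvate, had estimates from -0.29 for Gapdh to -0.35 for Eno1. Without flox 2 all 5 stood nearer 0, at -0.096 for Gapdh, -0.15 for Pgk1, -0.16 for Pgam1, -0.17 for Eno1 and -0.15 for Pkm. Gapdh, the dehydrogenase often used as a reference gene, stood at 869, 1166 and 818 CPM in flox and 734, 816, 829 and 743 CPM in KO (-0.29 ± 0.12 SE as log2 fold change, adjusted p = 0.341 by edgeR). KO 3 lay above flox 3, so its groups overlapped. Pgk1, the first ATP-forming kinase (ENSMUSG00000062070, chromosome X, 106187100 to 106203699), stood at 280.2, 384 and 271 CPM in flox and 238, 265, 236 and 244 CPM in KO (-0.34 ± 0.12 SE as log2 fold change, adjusted p = 0.267 by edgeR). Pgam1, the phosphoglycerate mutase, stood at 118, 155 and 118 CPM in flox and 98.4, 114, 98.8 and 106 CPM in KO (-0.32 ± 0.11 SE as log2 fold change, adjusted p = 0.253 by edgeR). In both genes flox 2 was far above the other flox libraries, while flox 1 and flox 3 still exceeded every KO library. Eno1, the ubiquitous enolase, stood at 643, 859 and 618 CPM in flox and 548, 583, 560.0 and 527 CPM in KO (-0.35 ± 0.11 SE as log2 fold change, adjusted p = 0.249 by edgeR). Pkm, the pyruvate kinase gene of leukocytes and muscle, stood at 1240.4, 1673 and 1229 CPM in flox and 1037, 1168, 1140.3 and 1041 CPM in KO (-0.33 ± 0.12 SE as log2 fold change, adjusted p = 0.274 by edgeR). For Eno1 and Pkm the groups did not overlap, and each had an exact permutation p of 0.0286. Eno3, the muscle enolase, ran from 8.47 to 10.001 CPM over the flox libraries and 8.15 to 11.5 CPM over the KO libraries (log2 fold change 0.021, 95% interval -0.29 to 0.33).

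Lactate dehydrogenase turns pyruvate into lactate and restores NAD+. Its gene Ldha ran from 413 to 527 CPM over the flox libraries and 372 to 404 CPM over the KO libraries, without overlap (log2 fold change -0.21, 95% interval -0.43 to 0.00502; -0.069 without flox 2). Ldhb, the heart-type subunit, had the largest standard error of the 36 genes (SE 0.28). It ran from 5.75 CPM in KO 3 to 14.3 CPM in KO 2, around flox values of 9.86 to 13.3 CPM (log2 fold change -0.21, 95% interval -0.85 to 0.42).

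Several of these genes have near-identical copies, and no source used here says how the counting split reads between copies, so their levels are uncertain. Of the 50-base words of the coding sequence, 94.2% for Gapdh, 100% for Pgk1, 100% for Pgam1, 83.4% for Eno1 and 53.01% for Pkm also occur in a transcript of another annotated gene. The counts given to all those other genes together came to 5.27% of the Gapdh count, 3.10% of the Pkm count, 0.0561% of the Pgk1 count, 0.376% of the Pgam1 count and 0.191% of the Eno1 count. The shares were 1.44% to 35.5% for Pygl, G6pdx, Taldo1, Tpi1, Aldoa, Ldha, Gpi1 and Ldhb. Hk3, Pgd, Tkt, Gys1, Gbe1, Slc2a3 and Pfkfb4 shared no such word. Exons of another gene on the same strand also cover 15.3% of the exonic bases of Pkm (Gm49759) and 10.2% of those of Pfkm (Gm26513), and opposite-strand exons cover 11.5% of those of Gpi1 (Gm26762).

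**Figure D3:**
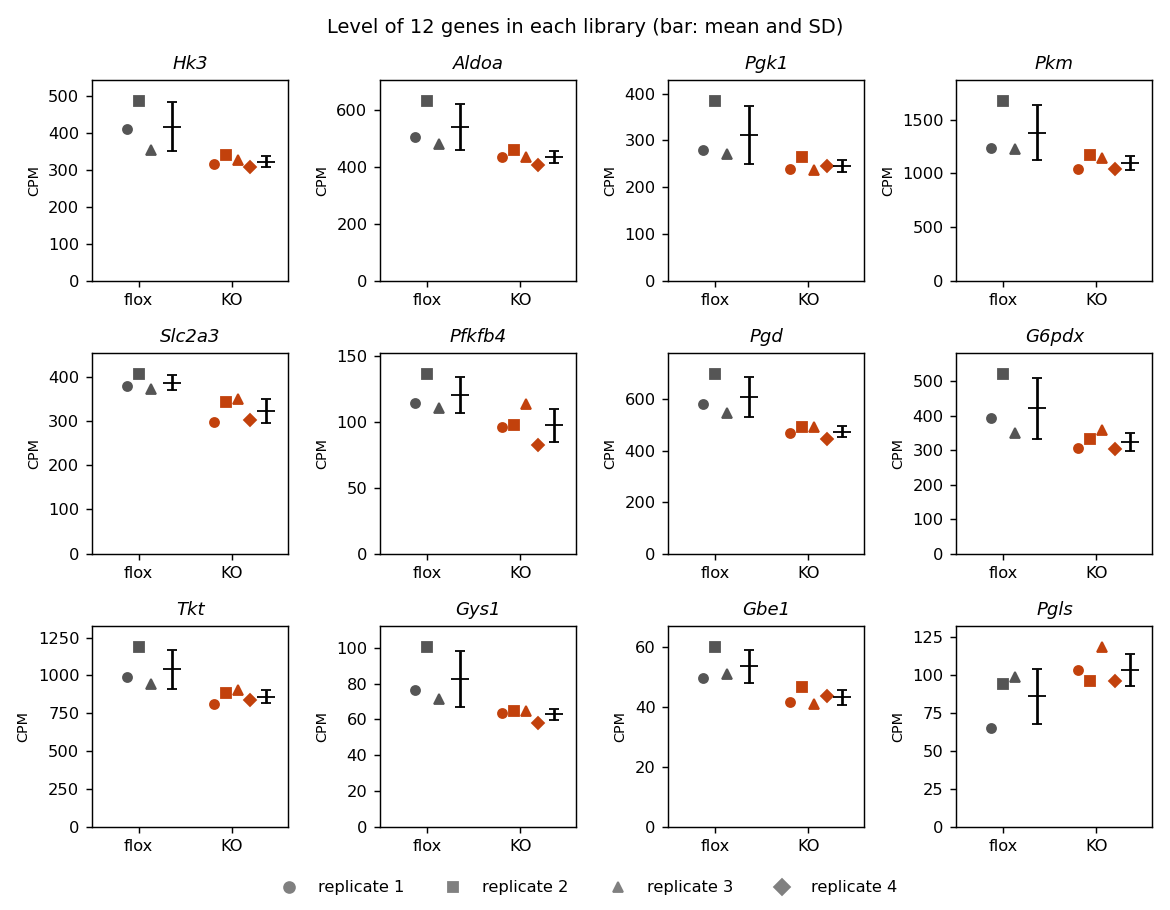
Points give CPM of 12 of the 36 genes in each library, flox in grey and KO in orange, with the symbol giving the replicate number; the black bar beside each group is its mean and SD (n = 3 and n = 4). Flox 2 is the highest library for each gene plotted except Pgls, which has flox 1 as its lowest library, at 64.9 CPM.

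Of the transporters, the neuronal and leukocyte glucose carrier Slc2a3 (GLUT3, ENSMUSG00000003153, chromosome 6, 122727809 to 122801640) differed most. It stood at 380.5, 406 and 374 CPM in flox and 297, 343, 350.5 and 302 CPM in KO, with every KO library below every flox library (-0.26 ± 0.082 SE as log2 fold change, adjusted p = 0.24 by edgeR; exact permutation p = 0.0571, above the smallest possible, since groups of unequal size leave another arrangement with as large a difference of means). Leaving out any 1 library kept its log2 fold change between -0.29 and -0.21. Slc2a1 (GLUT1), a widely expressed carrier that hypoxia induces, ran from 17.8 to 29.5 CPM over the flox libraries and 21.8 to 26.5 CPM over the KO libraries (log2 fold change 0.052, 95% interval -0.29 to 0.40). The lactate exporter Slc16a3 (MCT4), typical of glycolytic cells, ran from 128 to 151 CPM over the flox libraries and 110.1 to 135 CPM over the KO libraries (log2 fold change -0.18, 95% interval -0.39 to 0.022). Slc16a1 (MCT1), which carries lactate in either direction and is abundant in erythroid cells, ran from 163 to 259.6 CPM over the flox libraries and 211 to 273 CPM over the KO libraries and had flox 2 as its lowest library (log2 fold change 0.14, 95% interval -0.22 to 0.50). The sign for Slc16a1 turned without flox 2 and that for Slc2a1 without flox 1.

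In each pair of regulatory kinases 1 gene had an estimate below 0 and the other an estimate near 0. Pfkfb3 and Pfkfb4 make the bisphosphate that activates phosphofructokinase. Pfkfb4 (ENSMUSG00000025648, chromosome 9, 108991778 to 109032228) stood at 114, 136 and 111 CPM in flox and 95.7, 97.9, 113 and 82.3 CPM in KO (-0.31 ± 0.11 SE as log2 fold change, adjusted p = 0.283 by edgeR). Its KO 3 library overlapped the flox range and KO 4 was the lowest, and without flox 2 the log2 fold change was -0.19. Pfkfb3, the hypoxia-induced member, ran from 66.6 to 82.9 CPM over the flox libraries and 69.1 to 80.2 CPM over the KO libraries (log2 fold change 0.035, 95% interval -0.17 to 0.24). Pdk1 and Pdk3 phosphorylate and switch off pyruvate dehydrogenase, which keeps pyruvate out of the mitochondrion. Pdk1 ran from 43.6 to 49.5 CPM over the flox libraries and 45.6 to 50.7 CPM over the KO libraries (log2 fold change 0.020, 95% interval -0.14 to 0.18) and Pdk3 from 42.1 to 49.5 CPM over the flox libraries and 40.3 to 43.1 CPM over the KO libraries (log2 fold change -0.16, 95% interval -0.33 to 0.00754), both with overlapping groups.

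In the oxidative branch of the pentose phosphate pathway both NADPH-forming dehydrogenases were estimated lower in KO and the step between them was not. G6pdx, the X-linked glucose 6-phosphate dehydrogenase that controls entry (ENSMUSG00000031400, chromosome X, 74409483 to 74429194), stood at 393, 520.3 and 351 CPM in flox and 305, 331, 358 and 302 CPM in KO (-0.38 ± 0.13 SE as log2 fold change, adjusted p = 0.265 by edgeR). KO 3 lay above flox 3, and flox 2 lay far above all others, so the groups overlapped. Without flox 2 the log2 fold change was -0.18. Pgd, the phosphogluconate dehydrogenase (ENSMUSG00000028961, chromosome 4, 149149991 to 149166771), stood at 583, 697 and 547 CPM in flox and 467, 491, 490.2 and 445 CPM in KO (-0.36 ± 0.093 SE as log2 fold change, adjusted p = 0.195 by edgeR; exact permutation p = 0.0286). This was the lowest p of the 36 genes, every KO library lay below every flox library, and without flox 2 the log2 fold change was -0.24. Pgls, the lactonase between them, had the largest estimate above 0 of the 36 genes, at 64.9, 94.2 and 98.5 CPM in flox and 104, 95.7, 118 and 96.3 CPM in KO (0.27 ± 0.14 SE as log2 fold change, adjusted p = 0.439 by edgeR). Flox 1 was its lowest library, flox 2 lay just below the KO range and flox 3 within it. Without flox 1 its log2 fold change was 0.099. Of the exonic bases of Pgls, 20.6% lie under exons of Fam129c on the same strand, which limits the reading of its counts.

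Genes of the non-oxidative branch, which returns pentoses to glycolysis, were also estimated lower in KO. Tkt, the transketolase, stood at 993, 1187 and 945 CPM in flox and 809, 887, 904 and 835 CPM in KO, without overlap (-0.28 ± 0.096 SE as log2 fold change, adjusted p = 0.267 by edgeR; exact permutation p = 0.0286). Rpe, the ribulose phosphate epimerase, stood at 56.3, 60.4 and 50.2 CPM in flox and 53.4, 49.6, 41.3 and 44.2 CPM in KO (-0.24 ± 0.10 SE as log2 fold change, adjusted p = 0.337 by edgeR). Here KO 1 overlapped the flox range and KO 3 was the lowest. Without flox 2 the log2 fold change was -0.16 for Tkt and -0.16 for Rpe. Taldo1 ran from 630.2 to 656 CPM over the flox libraries and 538 to 610.0 CPM over the KO libraries (log2 fold change -0.15, 95% interval -0.33 to 0.019), and Rpia, the ribose phosphate isomerase, from 108 to 109.7 CPM over the flox libraries and 98.1 to 106 CPM over the KO libraries (log2 fold change -0.11, 95% interval -0.24 to 0.027). Neither of these overlapped between groups, by narrow margins. Opposite-strand exons cover 17.9% of the exonic bases of Rpe (Kansl1l) and 13.6% of those of G6pdx (Ikbkg), and whether the counting used strand is stated in no source used here.

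All 3 glycogen genes lay lower in every KO library than in any flox library. Gys1, the glycogen synthase of muscle and blood cells (ENSMUSG00000003865, chromosome 7, 45434844 to 45456619), stood at 76.2, 100.3 and 71.1 CPM in flox and 63.4, 64.7, 64.6 and 58.1 CPM in KO (-0.40 ± 0.11 SE as log2 fold change, adjusted p = 0.22 by edgeR; exact permutation p = 0.0286). Its log2 fold change was the lowest of the 36 genes and corresponds to a level 1.32-fold lower in KO. Gbe1, the branching enzyme (ENSMUSG00000022707, chromosome 16, 70313949 to 70569716), stood at 49.7, 59.8 and 50.96 CPM in flox and 41.6, 46.4, 40.7 and 43.5 CPM in KO (-0.31 ± 0.085 SE as log2 fold change, adjusted p = 0.211 by edgeR; exact permutation p = 0.0286). Pygl, the liver-type glycogen phosphorylase that releases glucose units (ENSMUSG00000021069, chromosome 12, 70190811 to 70231488), stood at 655, 772 and 633 CPM in flox and 509, 613, 617 and 526 CPM in KO (-0.28 ± 0.10 SE as log2 fold change, adjusted p = 0.286 by edgeR; exact permutation p = 0.0571). Genes for building and for breaking down glycogen thus had estimates of the same sign. Without flox 2 they were -0.21 for Gys1, -0.21 for Gbe1 and -0.17 for Pygl.

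**Figure D4:**
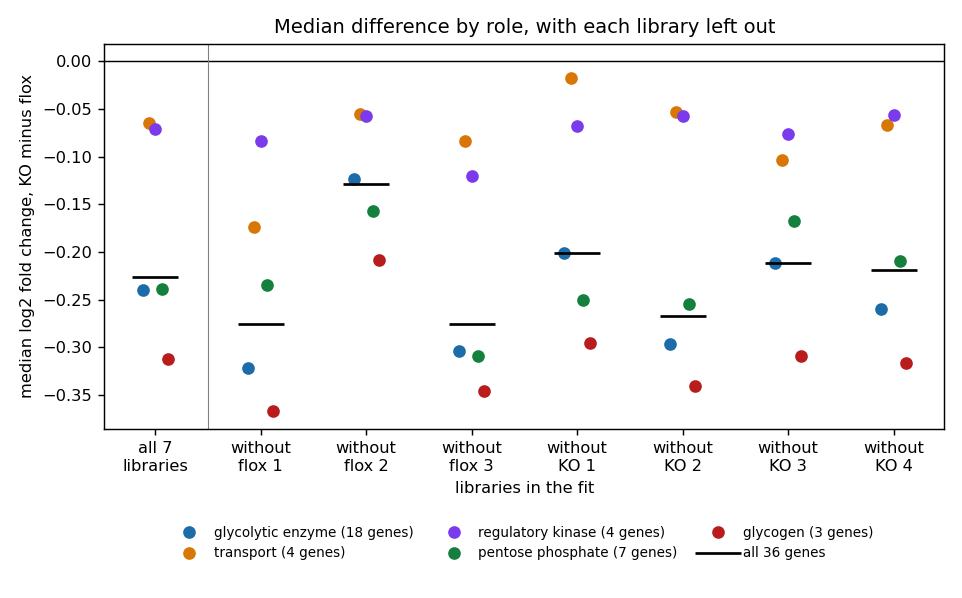
Coloured points give the median log2 fold change of each role in the edgeR fit to all 7 libraries and in the fits without 1 library each; black bars give the median of all 36 genes. The black bar runs from -0.23 with all libraries to -0.13 without flox 2, and every point lies below 0.

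The mix of related genes within a library does not depend on how libraries are scaled, so it was described as each gene's share of its family in counts per kilobase. Hk3 was the leading hexokinase transcript, at 64.4%, 71.03% and 64.9% in flox and 61.8%, 66.3%, 63.6% and 63.99% in KO. Hk1 made up 18.97% to 25.9% in flox and 23.99% to 28.7% in KO, and Hk2 the rest. The hexokinase mix therefore overlapped between groups even though Hk3 itself did not. Flox 2 stood apart, with the highest Hk3 and lowest Hk1 share.

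The Pfkfb pair was the family whose mix did not overlap between groups. Pfkfb3 made up 27.3%, 28.2% and 28.4% in flox and 32.7%, 33.4%, 31.3% and 35.1% in KO, and Pfkfb4 the rest. The mean share of Pfkfb3 was 27.98% ± 0.594 (SD, n = 3) in flox and 33.1% ± 1.56 (SD, n = 4) in KO. No test was run on shares. Among all tested genes, taken singly, 7.41% lay lower in every KO library and 6.22% higher. No result about Pfkfb3 and Pfkfb4 is drawn from a lone family without overlap. In the other 8 families (hexokinases, phosphofructokinases, aldolases, enolases, lactate dehydrogenases, glucose transporters, lactate transporters and Pdk kinases) the groups overlapped.

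Flox 2 also differed in the phosphofructokinase and lactate transporter mix. Pfkm, the muscle-type subunit, made up 56.7%, 40.8% and 55.6% in flox and 50.8%, 49.8%, 56.1% and 51.7% in KO. Slc16a1 made up 70.8%, 56.5% and 69.7% in flox and 72.9%, 68.3%, 70.8% and 72.1% in KO of the lactate transporter pair. Flox 1 lay just above the KO range for Pfkm, and flox 1 and flox 3 lay within it for Slc16a1. Slc2a3 made up 85.2% to 91.2% of the glucose transporter pair over all libraries, Ldha 93.1% to 97.1% of the lactate dehydrogenases and Aldoa at least 99.3% of the aldolases.

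**Figure D5:**
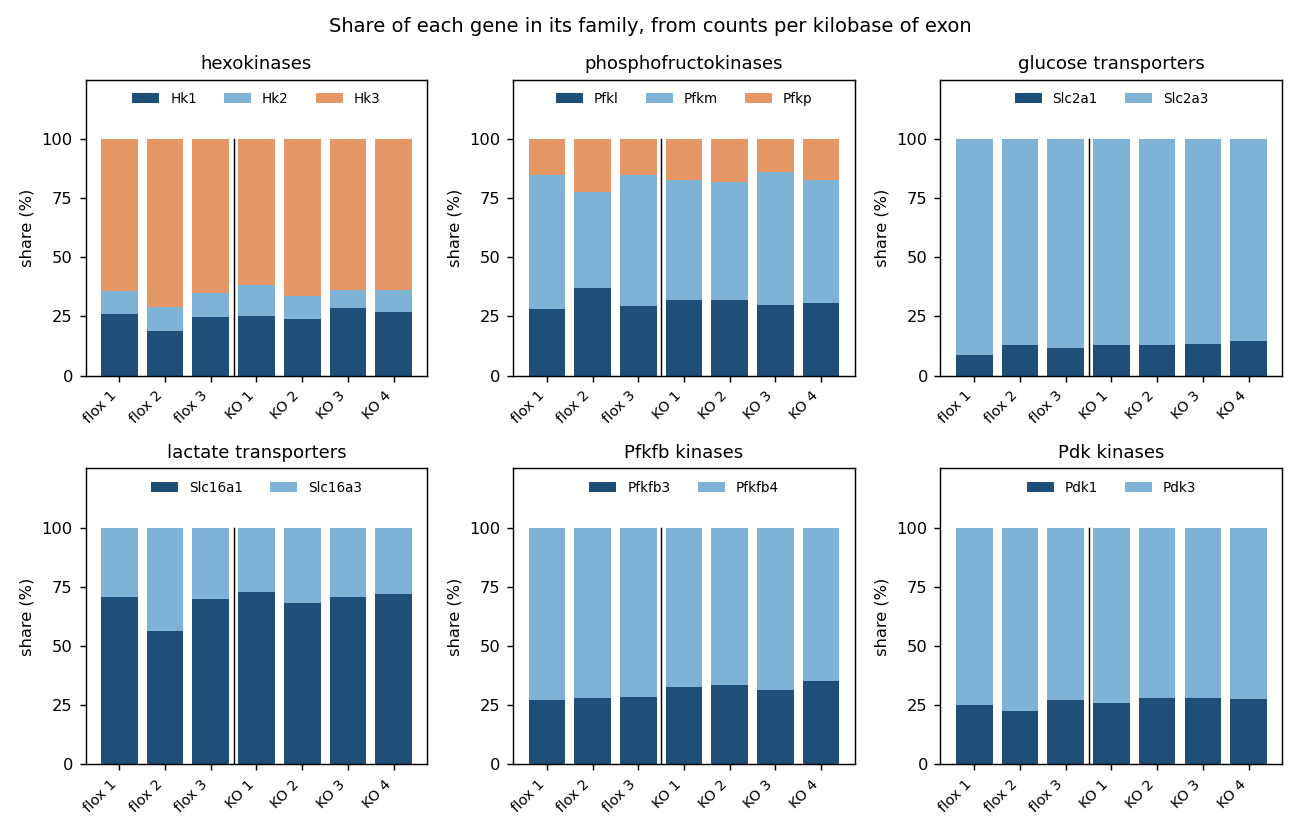
Stacked bars give each gene's share of its family in counts per kilobase of exon, in each library (flox left of the black line, KO right of it). Pfkfb3 holds 27.3% to 28.4% in flox and 31.3% to 35.1% in KO, and flox 2 has the lowest Hk1, Pfkm and Slc16a1 shares.

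The summed neutrophil markers were highest and lowest in the same libraries as these genes, but 1 of their 3 lists was not. Summed, the 36 genes came to 10861, 13122 and 10425 CPM in flox and 9156, 9937, 10019 and 9157 CPM in KO. The 19 neutrophil markers of 3 lists (primary granule, secondary granule and mature neutrophil) summed to 52131, 69493 and 47974 CPM in flox and 38144, 48588, 45056 and 40790 CPM in KO. Both sums were highest in flox 2 and had KO 1 and KO 4 as their lowest libraries. The primary granule list alone summed to 2960, 3662, 2615 and 3118 CPM in KO, so KO 3 was its lowest library. The secondary granule and mature neutrophil lists were lowest in KO 1. All 19 neutrophil markers had estimates below 0 in KO, none passing over all genes. Taken as a percentage of the neutrophil marker sum, a ratio chosen after the data were seen, the 36 genes came to 20.8%, 18.9% and 21.7% in flox and 24.003%, 20.5%, 22.2% and 22.4% in KO. On that scale the groups overlapped, with flox 2 lowest, and the same held for each of the 5 roles. Unscaled, the sums overlapped between groups for transporters, regulatory kinases and the neutrophil markers. They did not overlap for the 36 genes together or for the glycolytic, pentose phosphate and glycogen roles. With a divisor that itself overlapped, overlap of the ratio cannot show what part the neutrophil markers had. In bulk RNA, fewer cells of a type and less RNA per cell cannot be told apart, and the part of the neutrophil markers in the differences above was not tested.

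The 10 erythroid markers (all above 0, none past the test) stood at 57409, 34358 and 47294 CPM in flox and 55334, 54732, 72535 and 55833 CPM in KO, and flox 2 was their lowest library. Pfkm and Slc16a1 were lowest in flox 2 as well. Monocyte and macrophage markers (7 genes, all below 0) summed to 1542 to 1943 CPM in flox and 1263 to 1576 CPM in KO. B lineage markers (10 genes, all above 0) summed to 74.2, 443 and 719 CPM in flox and 958, 765, 935 and 828 CPM in KO, with flox 1 far below the rest, as for Pgls. Skeletal muscle, a tissue rich in Eno3, Pfkm and Aldoa, gave 11 markers (8 tested, all above 0) that summed to 15.1 to 18.4 CPM in flox and 16.5 to 28.5 CPM in KO. T cell markers (5 of 7 above 0) summed to 71.3 to 77.01 CPM in flox and 76.9 to 98.3 CPM in KO and NK cell markers (6 of 6 above 0) to 17.1 to 21.9 CPM in flox and 20.8 to 30.8 CPM in KO. Adipocyte markers were below 0 in 5 of 5 tested. Markers of marrow stroma (9 of 9), megakaryocytes (8 of 8), endothelium (5 of 6) and neurons (8 of 8) were below 0, with 1 of them, the neuron marker Snap25, past the edgeR test. Intestinal epithelium markers were above 0 in 10 of 10, all 10 past the edgeR test. None of these lists had a marker at 0 in all libraries, and their part in the results was not tested.

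The remaining genes of these pathways, 85 in 6 lists, gave 72 tested genes, of which 0 passed the edgeR test. Of the 72, 41 were lower in KO and 31 were higher; their median was -0.036 on the log2 scale. At an unadjusted edgeR p of 0.05, 11 of the 72 were lower (all tested genes 8.17%) and 6 were higher (all tested genes 5.89%). Of the 22 other glycogen genes tested, 17 were lower (all tested genes 51.9%) and 5 higher, with a median of -0.14 and a range from -0.45 to 0.40. Of these, 6 lay lower in every KO library (all tested genes 7.41%). In the other lists the genes lower were 5 of 11 glycolytic enzymes, 4 of 10 transporters and 4 of 6 pentose phosphate genes. They were 8 of 13 genes of regulation and pyruvate dehydrogenase and 3 of 10 of gluconeogenesis and glucose release. Gyg, the glycogenin that primes glycogen, stood at 90.1, 119 and 86.1 CPM in flox and 74.2, 81.4, 73.7 and 71.7 CPM in KO (-0.39 ± 0.11 SE as log2 fold change, adjusted p = 0.22 by edgeR). Its groups did not overlap, and the same was true of the phosphoglucomutase gene Pgm1, at 31.3 to 41.05 CPM over the flox libraries and 24.5 to 29.03 CPM over the KO libraries (log2 fold change -0.40). Flox 2 was the highest library for both.

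The 2 lowest p-values among the other pathway genes were for scarce genes that were higher in KO. Fbp2, a fructose bisphosphatase, stood at 0.558, 0.451 and 0.449 CPM in flox and 0.991, 1.34, 1.22 and 1.21 CPM in KO (1.29 ± 0.23 SE as log2 fold change, adjusted p = 0.0863 by edgeR). Hkdc1, a hexokinase-like enzyme of gut epithelium and other tissues, stood at 0.498, 0.348 and 0.342 CPM in flox and 0.991, 1.04, 1.005 and 1.02 CPM in KO (1.35 ± 0.24 SE as log2 fold change, adjusted p = 0.0863 by edgeR). DESeq2 called both. The 10 intestinal epithelium markers summed to 41.1 to 42.3 CPM in flox and 92.5 to 100.2 CPM in KO in the same libraries; their part in these 2 genes was not tested.

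The core letters of the hypoxia response element, ACGTG, were searched on both strands of RefSeq promoters (GRCm38.p6; a window of one length for every gene, mostly upstream of an annotated transcript start), since hypoxia-inducible factors are textbook regulators of glycolytic genes and the mice had an ischemic limb. Of the 36 genes 35 had a promoter entry, and 18 of the 35 (51.4%) held the motif in at least 1 promoter, against 21.8% of all 27025 genes. Counted per promoter, it was in 42.9% of 49 for these genes and 19.6% of all 32851. That background takes in genes not expressed in these libraries, while all 36 genes are expressed, so the shares do not compare like with like. The motif lies within the E-box CACGTG, which occurred in 8.16% of the promoters of these genes and 7.15% of all promoters. Windows of 30 bases are shown for 5 genes from different steps, on the strand where the motif reads ACGTG (capitals), with its position counted from the transcript start of the RefSeq promoter entry. For Aldoa, Slc2a1 and Pygl that start lies inside the span annotated by GENCODE, downstream of the outermost start. The Aldoa match is also in another entry, at -126.
Aldoa (chr7:126799364-126799393, plus strand, first base at -202): cgccccgctaggACGTGactcgagccacat
Pgk1 (chrX:106186938-106186967, plus strand, first base at -150): gcgtcgtgcaggACGTGacaaatggaagta
Pgam1 (chr19:41911745-41911774, plus strand, first base at -114): cgctccttgcttACGTGcgctccgtgactg
Slc2a1 (chr4:119108697-119108726, plus strand, first base at -36): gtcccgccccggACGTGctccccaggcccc
Pygl (chr12:70227797-70227826, minus strand, first base at -131): cctttgcgcactACGTGacctggacgttct
The genes with the motif had a median log2 fold change of -0.24 (14 of 18 lower in KO) and those without it -0.21 (14 of 17 lower). A motif match is a description of the letters in this window and says nothing of binding.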

How the data were processed

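Poly(A)-selected RNA of 7 bone marrow libraries was sequenced, per the labels' protocols. The authors deposited raw read counts per Ensembl gene, made with Trimmomatic 0.36, STAR 2.5.2b and featureCounts of Subread 1.5.2 on GRCm38, per the submitters' processing notes. No source used here states which annotation, strand setting or rule for multi-mapping reads they used. Columns were matched through the library codes in the labels (0 columns unmatched), and groups follow the genotype label. Libraries of a group differed beyond sampling noise (chi-square per degree of freedom 19 to 90.6), so all 7 were kept. GENCODE M21 gave names, exonic lengths and positions for 49056 of 49315 identifiers.

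In R 4.3.3, edgeR 4.0.16 filtered (filterByExpr, minimum count 10), normalized (TMM) and fitted (robust glmQLFit) all genes; the two-sided glmQLFTest of KO against flox was adjusted by Benjamini-Hochberg over 17920 genes. Fold changes are log2, KO minus flox, with standard errors from the F statistic. The script was tested on simulated data, where it recovered 38.8% of 1.5-fold and 60.4% of 2-fold changes, with 14 false calls among 149. The largest difference of the 36 genes, 1.32-fold for Gys1, is smaller than any change simulated. The absence of calls among them therefore does not exclude differences of that size. Exact permutation tests used log2 CPM (prior count 2) and all 35 splits. DESeq2 1.42.0 and limma 3.58.1 were alternatives, with other scalings and filters, the replicate number as a block and each library left out. The members, lists and tests were chosen with earlier results of these data known. Every one of the 36 genes is named; genes with an unadjusted edgeR p under 0.05, the lowest p of each role and the largest rise are given in every library, and the rule for the other pathway genes takes the 6 with the lowest p, of which 2 are not reported here.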

Additional observations from a re-analysis of the deposited data

How the results depend on the processing

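Under the 17 alternatives 0 of the 36 genes passed an adjusted p of 0.05, except that DESeq2 called 1, Pgd. The count of genes lower in KO ran from 28 to 32. The median over the 36 genes was -0.25 to -0.20 under other scalings, filters and tools and -0.28 to -0.13 with 1 library left out, the value nearest 0 being without flox 2; that library also took the count at an unadjusted p of 0.05 from 18 to 6, and leaving out KO 4 took it to 11. Medians with 1 library left out ran over -0.32 to -0.12 (glycolytic enzymes), -0.17 to -0.018 (transporters), -0.12 to -0.057 (regulatory kinases), -0.31 to -0.16 (pentose phosphate) and -0.37 to -0.21 (glycogen). The count without overlap between groups, an alternative chosen after seeing the data, ran from 16 to 22 with 1 library left out. Over the same fits the share of all tested genes ran from 9.42% to 13.9%. Leaving out a library cannot lower the count, so its lower end was fixed in advance. Among the other pathway genes DESeq2 called 3 and the fit with no filter beyond 1 count called 2, against 0.

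Signs turned for genes near 0. Pfkl was 0.000811 with DESeq2 size factors, 0.00794 with library size alone, 0.000834 with DESeq2, 0.00236 with a minimum count of 50, 0.086 without flox 2 and 0.025 without KO 2. Without flox 2, Pfkm was -0.14, Pfkp 0.092, Aldoc 0.00832, Slc16a1 -0.026 and Pdk1 -0.015. Without flox 1, Eno3 was -0.058, Slc2a1 -0.12 and Pfkfb3 -0.028; Pfkfb3 was -0.00923 without flox 3, Eno3 -0.076 without KO 1 and Pfkm -0.067 without KO 3. With 1 library left out, the opposite ends were -0.059 for Pfkl, 0.13 for Pfkm, -0.17 for Pfkp, -0.15 for Aldoc, 0.10 for Eno3, 0.25 for Slc2a1, 0.26 for Slc16a1, 0.16 for Pfkfb3 and 0.054 for Pdk1. The cause was not tested. Over all genes the count of 26 was 365 with DESeq2, 112 with no filter, 16 with non-robust dispersion, 4 with the replicate block and 2 to 14 with 1 library left out.

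Same-numbered libraries did not deviate together (correlations -0.0221, 0.0228 and 0.0768), and not every library correlated best with its own number, so the numbers are not taken to pair them. With the replicate block 0 of the 36 genes passed, the median was -0.22 and 14 had an unadjusted p under 0.05 and a lower estimate. The lowest count of any of the 36 genes in a library was 130; 3 flox libraries, 1 of them set apart for most of these genes, limit the comparison.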
